A study of Mus musculus with 4 samples.

Results

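The genes described are the natriuretic peptides Nppa, Nppb and Nppc and their receptors Npr1, Npr2 and Npr3, chosen by name as the 6 members of this family among 27998 genes in each library. They were followed in hearts of C57Bl6J mice at embryonic day 12 (E12), E15, postnatal day 2 (P2) and 8 weeks of age (adult), with no other treatment or allele in the labels. Cells were sorted as CD31+/CD45-, a gate for endothelial cells without leukocytes, frozen in DMSO, thawed and loaded on a 10x Genomics droplet device. Hearts of 37 embryos at E12, 48 embryos at E15, 21 pups at P2 and 6 adults were pooled into 1 library per stage, so no stage has replicates, no test between stages was possible, and stage and library cannot be told apart. Classes of cells could be compared within libraries, where 4 libraries as pairs cannot give a two-sided exact p below 0.125. Embryonic cells passed through a dead cell removal kit and postnatal cells were sorted again for live cells. The digestion also differed, with Collagenase/Dispase for embryos and Collagenase II followed by Collagenase/Dispase for P2 and adult hearts.

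Atrial natriuretic peptide (from Nppa) and B-type natriuretic peptide (from Nppb) are hormones of cardiomyocytes that lower blood pressure and cardiac load, while C-type natriuretic peptide (from Nppc) acts locally and is known from endothelium, cartilage and brain. Npr1 is the guanylyl cyclase receptor of the atrial and B-type peptides and Npr2 that of the C-type peptide, and both make the second messenger cGMP inside the cell. Npr3 lacks the cyclase domain. It takes up all the peptides for degradation, which gives it the name clearance receptor, and its short tail couples to inhibitory G proteins. Npr3 is widely used as a marker of the endocardium, the endothelium that lines the heart chambers.

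The 3 peptides share a ring of residues closed by a disulfide bond between 2 cysteines, which is the part the receptors bind. The coding sequence of that ring is printed for Nppb and Nppc because it shows how alike a ligand of Npr1 and the ligand of Npr2 are. The sequences were read 5′ to 3′ on the coding strand from GENCODE vM21 transcripts (GRCm38, the same assembly as mm10), and capitals mark the bases that are identical in both genes.
Nppb: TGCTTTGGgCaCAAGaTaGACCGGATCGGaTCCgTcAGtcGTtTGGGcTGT
Nppc: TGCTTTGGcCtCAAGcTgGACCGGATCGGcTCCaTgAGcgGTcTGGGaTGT
Each stretch is 51 bases long and lies within exon 2 of 3, at chr4:147986464-147986514 on the plus strand for Nppb and chr1:86669667-86669717 on the minus strand for Nppc. The pair shared 40 of the 51 bases, and 13 of 17 codons encode the same residue.

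Nppa (ENSMUSG00000041616, chr4:148000722-148002079) and Nppb (ENSMUSG00000029019, chr4:147985788-147987205) are neighbours on the plus strand, 13516 bases apart, with no annotated gene wholly between them. Nppc (ENSMUSG00000026241) lies at chr1:86666291-86670571 on the minus strand. The cyclase receptors Npr1 (ENSMUSG00000027931, chr3:90450591-90465866, minus strand) and Npr2 (ENSMUSG00000028469, chr4:43631935-43651244, plus strand) have 22 exons each and coding lengths of 3171 and 3141 bases. Npr3 (ENSMUSG00000022206, chr15:11839896-11907287, minus strand) has 8 exons and a coding length of 1608 bases. Nppa, Npr1, Npr2 and Npr3 each overlap a noncoding gene on the other strand (Gm13054, Gm16048, Gm12473 and Gm5144). Whether reads were counted by strand is not given in the sources used here, and without it the reads of such a pair cannot be told apart.

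Transcripts were counted from their 3′ end by unique molecular identifiers (UMIs), so levels are compared between cells and not between genes. The cells numbered 5732 at E12 (barcodes over a minimum of UMIs), 6062 at E15, 5884 at P2 and 4242 at the adult stage, with median depths of 1241, 1013, 4531.5 and 1510 UMIs. The P2 library was the deepest, with 29645059 UMIs in cells against 7079759 to 8122358 in the others. Pairs of libraries shared 25 to 60 cell barcodes, where 32.98 to 48.4 would be shared at random draws from the barcode list. Levels are CPM, the UMIs of a gene in a class of cells per 1000000 UMIs of that class, with exact 95% intervals, which cover counting error only and not variation between animals. The intervals of levels and ratios take each UMI as independent, so they are too narrow where a few cells hold many of the UMIs.

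Cells were put in classes without any of the 6 genes. Valve cells had at least 2 UMIs of Cldn11 and Enpp2 or at least 1 of Pthlh and Wnt4, and endocardial cells had more UMIs of Tmem108, Cpe and Gsta4 than of Fabp4, Cldn5 and Aplnr. Coronary cells had at least 2 UMIs of the second set and more than of the first. This gave 1533, 2288, 1144 and 108 endocardial cells, 111, 1221, 3925 and 4000 coronary cells, and 177, 213, 756 and 72 valve cells in stage order (E12, E15, P2, adult), with 3911, 2340, 59 and 62 cells left unclassed. All 12 pan-endothelial markers had UMIs in each of the 12 class-by-stage sums. The same held in the unclassed cells of each stage, so it does not set the classes apart. In adult endocardial cells these markers summed to 8187 CPM, below the 9414 CPM of 12 mesenchymal and mural markers. A list of 10 endocardial markers outside the rule summed to 2116 to 3745 CPM in endocardial and 255 to 799 CPM in coronary cells, and 10 coronary markers outside the rule summed to 104 to 1083 CPM in endocardial and 727 to 10749 CPM in coronary cells. At E12 the 111 coronary cells held 727 CPM of coronary markers, below their 799 CPM of endocardial markers. The E12 endocardial cells held 104 and 2116 CPM of these lists. The valve class was less distinct: 10 valve markers outside the rule summed to 1525, 1193, 1352.5 and 1198 CPM in valve cells, 1351.5, 878, 1096 and 953 CPM in endocardial cells and 355, 314, 489 and 1750 CPM in coronary cells, so that the adult valve cells lay below the adult coronary cells. Valve cells are therefore cells that met the rule above.

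The classes were mixed. UMIs of both marker sets were present in 0.652%, 5.11%, 82.1% and 69.4% of endocardial cells in stage order and in 11.7%, 12.1%, 37.3% and 8.98% of coronary cells. These shares depend on depth and were not thinned. Median depths were 1287, 1030.5, 4434 and 2722.5 UMIs in endocardial and 1977, 1160, 4371 and 1473 in coronary cells. The class rules use fixed counts, so class sizes depend on depth too. Mesenchymal and mural markers (12 genes) summed to 9414 CPM in adult endocardial cells against 1531 to 1702 CPM at the earlier stages, 915 CPM in adult coronary and 4394 CPM in adult valve cells. Leukocyte markers reached 1047 CPM in adult valve cells and 9.56 CPM in adult endocardial cells. Mesenchyme-like cells had at least 5 mesenchymal and mural UMIs and more of these than of pan-endothelial markers. They made up 284 of 1533, 197 of 2288, 39 of 1144 and 24 of 108 endocardial cells in stage order. The part of mesenchymal cells and leukocytes in the class values was not tested. Lymphatic markers (6 genes) summed to 765 CPM in E12 coronary cells and 53.8 CPM in E12 endocardial cells. At P2 they summed to 954 CPM in coronary, 1237.5 CPM in valve and 174 CPM in endocardial cells, and in the adult to 116, 126 and 127 CPM. The study removed lymphatic cells. They were not removed here, and their part in the values was not tested. Of the valve cells, 76, 100, 369 and 20 also met the endocardial rule and 3, 27, 354 and 50 the coronary rule, the latter being most of the 72 adult cells. Doublet scores over 0.15 were found in 6.07%, 9.01%, 4.15% and 2.22% of cells, and these cells were kept in the values given here. The limit is a partial one, passed by 46.9%, 48.3%, 50.8% and 19.7% of simulated doublets.

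**Figure D1:**
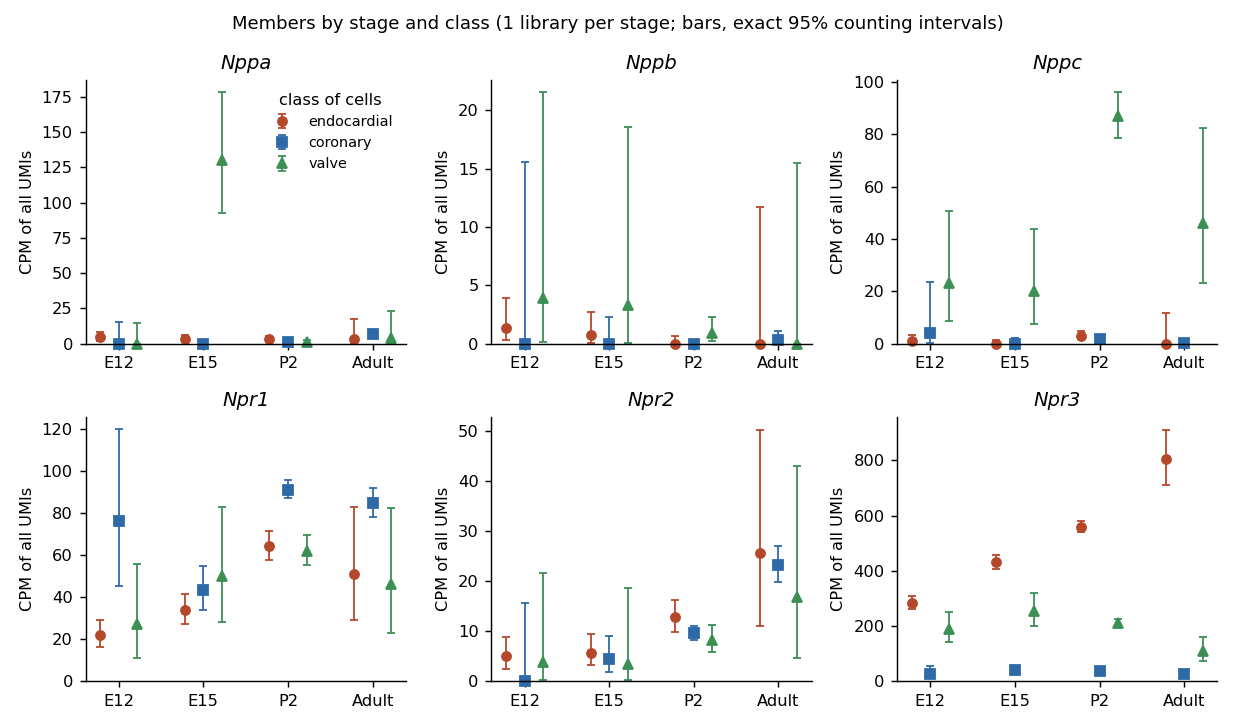
CPM of each of the 6 genes (y axis) at the 4 stages (x axis) in endocardial (circles), coronary (squares) and valve cells (triangles), 1 library per stage, with exact 95% counting intervals as bars. Npr3 was highest in endocardial cells at every stage (284 to 806 CPM), Nppc in valve cells (20.1 to 87.0 CPM), and the single high Nppa point at E15 (130 CPM) comes from 1 cell.

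Npr3, the clearance receptor, had the clearest pattern of the 6 genes. Endocardial cells held 284 CPM at E12 (95% interval 262 to 307, 639 UMIs), 430 at E15 (405 to 455), 558 at P2 (539 to 579) and 806 at the adult stage (710 to 912, 253 UMIs). In stage order, valve cells held 190 CPM (140 to 251), 254 (200 to 318), 212 (198 to 225) and 109 (71.1 to 160), and coronary cells 25.4 (9.31 to 55.2, 6 UMIs), 40.9 (31.6 to 52.0), 37.5 (34.8 to 40.3) and 25.8 (22.1 to 29.8). The order endocardial above valve above coronary held at all 4 stages, and no interval of a class overlapped that of another class of the same stage. Of the Npr3 UMIs of a library, endocardial cells held 43.8%, 59.1%, 62.9% and 50.7%, although they were only 2.55% of the adult cells. Unclassed cells held 52.4% at E12 and 33.6% at E15, and there the level followed the endothelial markers, with 247 CPM at E12 in unclassed cells with at least 2 pan-endothelial UMIs against 34.3 CPM in the rest, and 334 against 63.9 CPM at E15.

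Within each library the endocardial level of Npr3 exceeded the coronary level 11.2 times (5.12 to 30.6), 10.5 times (8.20 to 13.7), 14.9 times (13.7 to 16.2) and 31.3 times (25.8 to 38.1) in stage order. These ratios changed with the way the classes were set, and the cause was not tested. With endocardial cells that lacked every UMI of the coronary set and coronary cells that lacked every UMI of the endocardial set, a split chosen after seeing the data, they were 11.8, 14.8, 70.2 and 172, the last from 33 endocardial cells. The split drops coronary cells with endocardial-set UMIs, so a larger ratio for a gene found with those markers is partly built in. Adult coronary Npr3 was 3.45 CPM with it, against 25.8 CPM. With cells thinned to 500 UMIs before the class rule they were 2.65 at E12 (0.719 to 22.1) and 68.6 in the adult. The endocardial level was above the coronary level in every one of these settings. Over the 4 libraries as pairs the mean log2 ratio was 3.94 ± 0.72 (SD, n = 4), higher in 4 of 4. Each pair is a different stage, so the SD includes differences between stages. The p-value was 0.125 (exact permutation test, two-sided), the smallest that 4 pairs can give. After Benjamini-Hochberg adjustment over 7 such comparisons it was 0.175.

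Cells with a UMI of Npr3 made up 29.9%, 35.6%, 77.7% and 63.0% of endocardial cells in stage order, 20.9%, 23.9%, 39.0% and 12.5% of valve cells and 4.50%, 4.42%, 8.69% and 1.33% of coronary cells. Because P2 cells were the deepest, shares at a common depth of 500 UMIs per cell were computed as well, with 17 and 98 endocardial cells under that depth left out at E12 and E15 and none later. The thinned shares rose with stage in endocardial cells, at 14.3% (12.6 to 16.2), 19.9% (18.3 to 21.6), 24.1% (21.7 to 26.7) and 36.1% (27.1 to 45.9), and were 2.70%, 1.99%, 2.01% and 0.825% in coronary cells. Red blood cells, which lack the receptor, served as a floor: 0 of 41 erythroid-like cells at E12 held an Npr3 UMI, at a median of 1851 UMIs, which allows a level of up to 40.1 CPM. The E12 coronary level of 25.4 CPM lay under this limit. E12 barcodes with at most 100 UMIs, taken as empty droplets, held 218 CPM of Npr3, above the coronary and below the endocardial level, and the part of free RNA in the E12 coronary value was not tested. In single cells, the highest count was 4, 5, 16 and 16 UMIs in endocardial cells and 19 in an adult coronary cell.

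Between neighbouring stages, endocardial Npr3 was 1.51 times higher at E15 than at E12 (1.37 to 1.67), 1.30 times higher at P2 than at E15 (1.21 to 1.39) and 1.44 times higher in the adult than at P2 (1.27 to 1.64). From E12 to the adult the ratio was 2.84 (2.45 to 3.29). The last step was the least certain, since with the cleanly separated classes it was 0.957 (0.709 to 1.27). In the same step the coronary level went the other way, to 0.687 times (0.580 to 0.810), and so did the valve level, to 0.515 times (0.335 to 0.759). Of the 26 adult valve UMIs, 9 came from 1 cell, and the level was 71.2 CPM without it. Coronary ratios at the earlier steps were 1.61 (0.703 to 4.55) and 0.917 (0.712 to 1.20), and valve ratios 1.34 (0.924 to 1.96) and 0.832 (0.659 to 1.07), all with intervals that include 1. The ratio of valve to endocardial cells fell through the stages, at 0.668 (0.489 to 0.894), 0.591 (0.463 to 0.746), 0.379 (0.352 to 0.408) and 0.135 (0.0866 to 0.203). The valve class also changed in make-up, with 3 of 177, 27 of 213, 354 of 756 and 50 of 72 cells that met the coronary rule too. The part of this in the valve values was not tested.

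**Figure D2:**
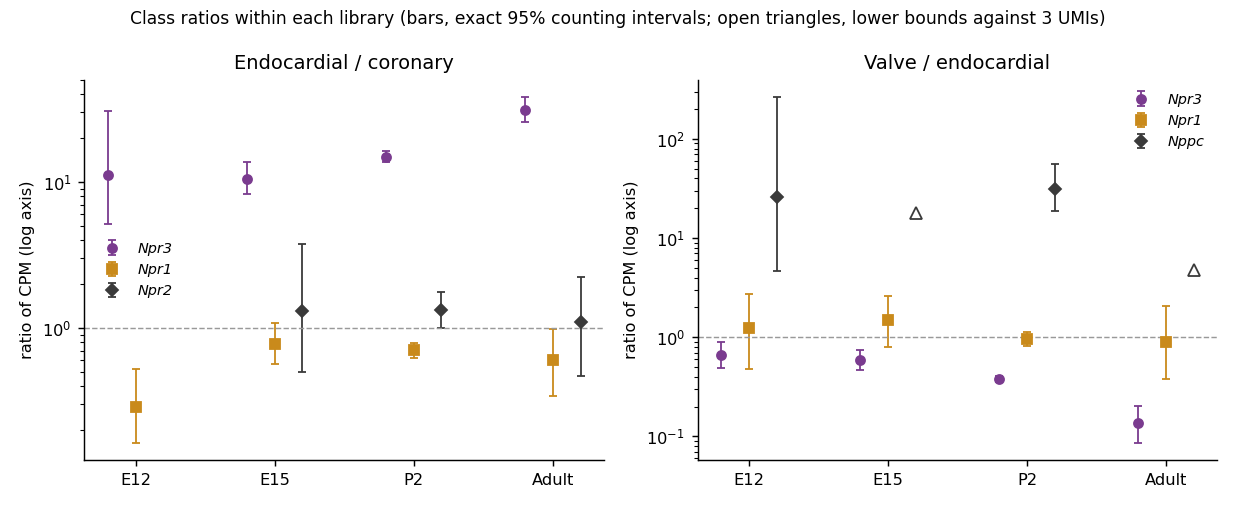
Ratios of CPM on a log axis (y) at the 4 stages (x), endocardial over coronary on the left and valve over endocardial on the right, with exact 95% counting intervals as bars, open triangles for lower bounds against 3 UMIs and a dashed line at 1. Npr3 lies above 10 on the left at every stage and Npr1 below 1, while on the right Npr3 falls from 0.668 to 0.135 and Nppc stays above 1.

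Few coronary cells carried the coronary Npr3 signal, and those cells also carried endocardial markers. Of 4000 adult coronary cells, 53 held Npr3, and in them the 10 endocardial markers summed to 3441 CPM, close to the 3745 CPM of endocardial cells and 18.4 times the 187 CPM of coronary cells without Npr3 (16.6 to 20.5). At P2 the same sums were 2210 and 366 CPM in the 341 coronary cells with Npr3 and the 3584 without it, a ratio of 6.04 (5.81 to 6.28). Coronary markers were present but lower in the Npr3 cells, at 0.608 times at P2 and 0.431 times in the adult. At E15 the endocardial markers were 2.48 times higher (2.1 to 2.91) in 54 cells with Npr3. Mixed droplets and single cells with both programmes cannot be told apart from these counts. Without cells over the doublet limit, which leaves an unknown number of doublets in place, the endocardial to coronary ratio was 17.5 at E15 and 19.3 at P2.

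Npr3 also differed between subgroups of the coronary class. Venous-like coronary cells, with more UMIs of Nr2f2, Vwf, Prss23 and Ackr1 than of 5 arterial genes, held 139.8 CPM at E15, 80.2 at P2 and 405 at the adult stage, against 33.2, 28.9 and 13.8 CPM in coronary cells that were neither venous-like nor arterial-like. The ratios were 4.21 (1.81 to 8.73), 2.77 (2.33 to 3.29) and 29.2 (19.6 to 44.7). The adult value came from 105 UMIs in 22 of 125 cells. Vwf is an endocardial marker as well as a venous one, and with Vwf left out of the venous list, a choice made after seeing the data, the ratios were 2.84 (0.882 to 7.08), 1.50 (1.21 to 1.84) and 3.92 (2.19 to 6.65), the last from 17 UMIs in 4 cells. With Vwf in the venous list, the other endocardial markers were 1427 CPM in adult venous-like cells and 190 CPM in the other coronary cells. With Vwf left out they were 1297 and 217 CPM, while Npr3 in adult venous-like cells was 139 CPM instead of 405. At E15, with Vwf in the list, these markers were 854 and 620 CPM. Arterial-like cells held 61.6, 37.3 and 9.52 CPM of Npr3 from E15 on. Against the other coronary cells these were ratios of 1.86 (0.894 to 3.57), 1.29 (1.06 to 1.56) and 0.688 (0.424 to 1.12). At E12 the 17 venous-like cells held 0 Npr3 UMIs, the 7 arterial-like cells 2 and the 87 other coronary cells 4.

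Dividing cells had a lower CPM of Npr3. Endocardial cells with at least 2 UMIs of Mki67, Top2a, Ccnb1, Ccnb2, Ube2c and Cdk1 had 175.5 CPM at E12, 295 at E15 and 370 at P2, against 320, 447 and 577 CPM in the other endocardial cells. The ratios were 0.549 (0.438 to 0.682), 0.659 (0.526 to 0.817) and 0.640 (0.548 to 0.744), and no adult endocardial cell met the dividing rule. In coronary cells the ratio was 0.386 at E15 (0.159 to 0.813) and 0.436 at P2 (0.359 to 0.526). Dividing endocardial cells were deeper, with medians of 1976, 1791 and 6053 UMIs against 1206, 1000 and 4386. In stage order, 252, 157 and 73 dividing endocardial cells held 98, 91 and 182 Npr3 UMIs. The 1281, 2131 and 1071 other endocardial cells held 541, 1053 and 2811. Per endocardial cell, Npr3 was close to equal at E12 and P2 and higher in the dividing cells at E15. The part of depth in the CPM ratios was not tested. Npr1 was nearer to equal between dividing and other coronary cells at P2, at 0.828 (0.747 to 0.916).

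Endocardial cells led by Pla2g7 and Prr15 and those led by Igfbp5 and Cytl1 had like levels of Npr3 at the embryonic stages, with ratios of 1.11 (0.827 to 1.46) at E12 and 1.12 (0.927 to 1.35) at E15. At P2 the first group held 682 CPM and the second 539 CPM, a ratio of 1.27 (1.15 to 1.39). Only 4 adult cells fell in the first group. At P2 the valve cells were split. Cells with only the Cldn11 and Enpp2 markers held 299 CPM and those with only Pthlh and Wnt4 held 131.5 CPM, a ratio of 0.440 (0.379 to 0.510). Valve cells with a UMI of Prox1, a transcription factor of lymphatic and valve endothelium, held 154 CPM against 228 CPM in the others (0.676, 0.564 to 0.805). At the other stages the ratio of Pthlh and Wnt4 cells to Cldn11 and Enpp2 cells was 0.783 (E12), 1.56 (E15) and 1.23 (adult), all with intervals that include 1. Mesenchyme-like cells, led by collagen and mural genes, held 31.7, 65.0, 133 and 30.7 CPM in stage order. These cells overlap the classes, and their part in the change of endocardial Npr3 with stage was not tested.

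**Figure D3:**
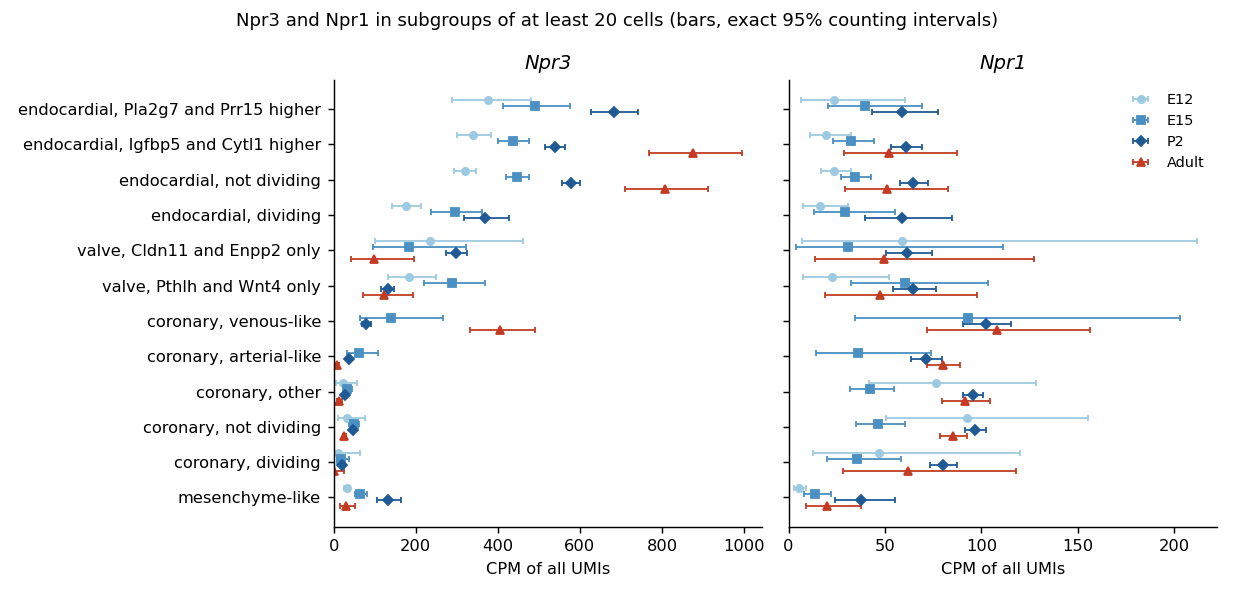
CPM (x axis) of Npr3 on the left and Npr1 on the right in subgroups of at least 20 cells (y axis), with symbols for the 4 stages and exact 95% counting intervals as bars. Npr3 separates endocardial from coronary subgroups, with adult venous-like coronary cells at 405 CPM as the exception, whereas Npr1 lies between 5.35 and 108 CPM in all of them.

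Npr1, the cyclase receptor of the cardiomyocyte peptides, had the reverse distribution in endocardial and coronary cells but a smaller contrast. Coronary cells held 76.1 CPM at E12 (45.1 to 120, 18 UMIs), 43.4 at E15 (33.8 to 54.8), 91.2 at P2 (87.0 to 95.5) and 84.9 at the adult stage (78.2 to 92.0). Endocardial cells held 21.8 (16.1 to 28.8), 33.8 (27.2 to 41.5), 64.2 (57.6 to 71.3) and 51.0 (29.1 to 82.8). Valve cells held 27.1, 50.1, 62.0 and 46.1 CPM, a level near the endocardial one at E12, P2 and the adult stage. At E15 the valve level, from 15 UMIs, was 1.16 times the coronary level (0.615 to 2.04) and 1.48 times the endocardial level (0.797 to 2.58). Both intervals include 1. The ratio of endocardial to coronary cells was 0.286 (0.164 to 0.522), 0.780 (0.564 to 1.08), 0.704 (0.626 to 0.791) and 0.601 (0.341 to 0.984) in stage order. It was below 1 at every stage (mean log2 ratio -0.85 ± 0.65, SD over the 4 stages, n = 4, exact permutation p = 0.125, two-sided). At E15 its interval includes 1. With the cleanly separated classes it was 0.304, 0.829, 0.810 (0.611 to 1.06) and 0.390 (0.0802 to 1.15), and with cells thinned before the class rule it was 0.609 at E12.

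Npr1 also changed with stage within a class. Coronary Npr1 was 2.1 times higher at P2 than at E15 (1.66 to 2.71), and endocardial Npr1 1.90 times (1.50 to 2.42). The median ratio of all genes in the same step was 1.24 in coronary and 1.18 in endocardial cells. The step from P2 to the adult gave 0.931 (0.847 to 1.02) in coronary and 0.795 (0.449 to 1.31) in endocardial cells. At E12 to E15 the endocardial ratio was 1.55 (1.08 to 2.25) and turned to 0.925 with thinned cells, so its direction was not settled. Cells with an Npr1 UMI were 14.4%, 5.65%, 34.4% and 13.3% of coronary and 3.07%, 3.85%, 25.4% and 13.9% of endocardial cells, and 2.70%, 2.68%, 4.99% and 4.88% against 1.25%, 2.01%, 2.88% and 2.78% after thinning. An erythroid-like cell with an Npr1 UMI was found once among 41 at E12 (2.44%). Of the 41, 4 met the endocardial rule, and their median depth was 1851 UMIs against 1287 in endocardial cells. With 1 such cell and unequal depth, this share cannot be set against the endocardial one. Among P2 coronary cells, Npr1 was 71.2 CPM in arterial-like and 102 CPM in venous-like cells (0.696, 0.588 to 0.825).

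The balance of the 2 receptors differed between classes at each stage. Npr3 made up 92.9%, 92.7%, 89.7% and 94.1% of the summed Npr3 and Npr1 UMIs of endocardial cells in stage order. In valve cells the percentage was 87.5%, 83.5%, 77.3% and 70.3%, and in coronary cells 25%, 48.5%, 29.1% and 23.3%. These percentages compare classes and do not give the relative number of receptors in a cell. Within endocardial cells up to P2, at full depth, both receptors were found together about as often as the product of their shares gives. At P2, 230 of 1144 cells held both against 225 from the product, and at E15 it was 37 against 31.3. In coronary cells at P2 it was 116 against 117. In the adult it was 13 against 9.44 in endocardial and 11 against 7.05 in coronary cells. After thinning, endocardial cells gave 4 against 2.72, 10 against 8.76, 5 against 7.96 and 2 against 1.08 in stage order. The counts are sparse and are given as a description.

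Npr2, the receptor of the C-type peptide, was the least abundant in UMIs of the receptors at every stage, with 51, 38, 293 and 176 UMIs per library. Endocardial cells held 4.89, 5.63, 12.7 and 25.5 CPM in stage order and valve cells 3.87, 3.34, 8.17 and 16.8 CPM. Coronary cells held 0 of 236631 UMIs at E12, which allows up to 12.7 CPM, and then 4.34, 9.51 and 23.2 CPM. The embryonic valve values are 1 UMI each. Coronary Npr2 was 2.19 times higher at P2 than at E15 (1.04 to 5.53) and 2.43 times higher in the adult than at P2 (1.96 to 3.02), while the median ratio of all genes in the second step was 1.03. Endocardial Npr2 rose 5.22 times from E12 to the adult (1.82 to 14.2, 8 adult UMIs). Endocardial and coronary cells did not differ beyond counting error, with ratios of 1.30 (0.499 to 3.77), 1.33 (0.995 to 1.77) and 1.10 (0.467 to 2.22) from E15 on. The E12 mesenchyme-like cells held 9.94 CPM and the empty droplets of that library 16.4 CPM.

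Nppc, the gene of the C-type peptide, was highest in the valve class. Valve cells held 23.2 CPM at E12 (8.52 to 50.5, 6 UMIs), 20.1 at E15 (7.36 to 43.7, 6 UMIs), 87.0 at P2 (78.6 to 96.0, 394 UMIs) and 46.1 at the adult stage (23 to 82.5, 11 UMIs). Endocardial cells held 2, 0, 15 and 0 UMIs in all, and coronary cells 1, 0, 35 and 1. Of the 15 endocardial UMIs at P2, 9 came from 1 cell, and the level was 2.80 CPM with it and 1.12 CPM without it. At P2 the valve level was 31.1 times the endocardial (18.6 to 56.1) and 48.6 times the coronary level (34.3 to 70.8). Against the 0 endocardial UMIs at E15 and in the adult, the exact 95% interval of the ratio began at 10.5 and 3.3. Without its highest cell the valve level was 10 CPM at E15, and the adult level of 8.38 CPM was then under the 9.56 CPM that 0 endocardial UMIs allow. At E12 the ratio was 26.1 (4.67 to 265). Valve Nppc was 4.34 times higher at P2 than at E15 (1.97 to 11.9) and 0.530 times as high in the adult as at P2 (0.262 to 0.958), where 9 of the 11 adult UMIs came from 1 cell, and 0.134 times within the study's cell limits.

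The P2 signal sat in few cells. The library held 445 Nppc UMIs in 77 cells, and 88.5% of them were in the valve class. Of 756 valve cells, 50 held Nppc (6.61%, 4.95 to 8.63; 2.12% after thinning) and 706 did not. The cells with most Nppc had 62, 48, 46, 45, 29 and 19 UMIs, and the first 4 held 201 UMIs, 51.0% of the valve total. Without the highest cell the valve level was 73.3 CPM, below the interval of 78.6 to 96.0 CPM. The intervals of Nppc at P2 are therefore too narrow. Outside the valve class, 27 of 5128 cells held 51 UMIs, with 9 in the highest.

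**Figure D4:**
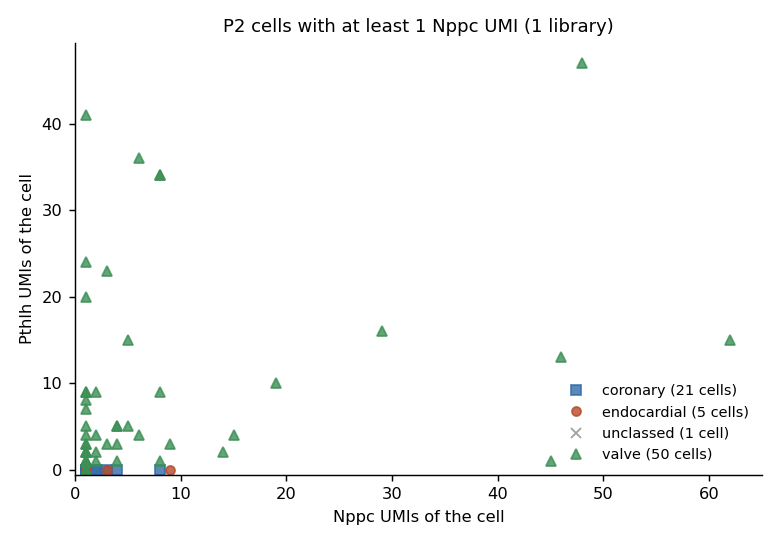
P2 cells with at least 1 Nppc UMI, by Nppc UMIs (x axis) and Pthlh UMIs (y axis) of the cell, with symbols for the 4 classes. All cells with more than 9 Nppc UMIs are valve cells, the highest has 62, and each cell outside the valve class has 0 Pthlh UMIs because the class rule takes such cells into the valve class.

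At P2, 27 of the 77 cells with Nppc lay outside the valve class, where the class rule allows no Pthlh or Wnt4 UMI. Most Nppc UMIs were in valve cells with Pthlh or Wnt4. Those with only Pthlh and Wnt4 held 136.8 CPM of Nppc (286 UMIs), those with both marker pairs 161 CPM (105 UMIs in 98 cells) and those with only Cldn11 and Enpp2 held 1.68 CPM (3 UMIs). The ratio of the first to the last was 81.4 (27.6 to 397). The other stages had few UMIs and did not repeat it, with 5 against 1 UMI at E15 (1.51, 0.169 to 71.5) and 2 against 9 in the adult (0.121, 0.0127 to 0.585), where 1 cell held the 9. The 163 valve cells with a Prox1 UMI held 1 Nppc UMI against 393 in the other 593. The 23 cells with at least 3 Nppc UMIs held 92.1% of the valve total, all 23 had a Pthlh or Wnt4 UMI, and 7 met the Cldn11 and Enpp2 rule. Depth was similar, at a median of 5916 UMIs in these cells and 5329 in valve cells without Nppc.

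These 23 cells were set beside the 389 valve cells with a Pthlh or Wnt4 UMI and no Nppc UMI, a comparison chosen after seeing the data. Nos3, the endothelial nitric oxide synthase, was 381 CPM against 141 CPM (2.70 times, 2.00 to 3.58), and the flow-responsive transcription factor Klf2 was 2877 against 2138 CPM (1.35 times, 1.22 to 1.48). Klf4, which the study names with Klf2 among genes induced by flow, did not differ beyond counting error (1.13 times, 0.876 to 1.44). Valve and endocardial markers went both ways. Against all valve cells without Nppc, 3 of 10 valve markers had a ratio with an interval above 1 and 4 below, and 5 and 2 of 10 endocardial markers did so, with Tgfbi at 0.125 (0.0257 to 0.367) and Plagl1 at 0.278 (0.138 to 0.499) among the lower ones. Against the 389 cells, Hapln1 was 3.99 times higher (2.82 to 5.53), Vwf 3.88 times (2.69 to 5.48), Cytl1 3.64 times (2.94 to 4.47) and Cryab 2.40 times (1.78 to 3.17). Prox1 had 0 UMIs against 125, Enpp2 had 1 against 240, and the capillary fatty acid transporter Cd36 was 0.153 times as high (0.0873 to 0.249). Npr3 was lower, at 66.9 against 166 CPM (0.403, 0.192 to 0.749), and Npr1 did not differ beyond counting error (1.33, 0.671 to 2.39). Pthlh, a gene of the class rule like Enpp2, was 8.15 times higher. Meg3 (14.4 times), Inhba (8.35 times), Ramp3 (7.43 times) and Htra1 (6.71 times) were also higher, and were chosen after their values against all valve cells without Nppc were seen.

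Nppa and Nppb, the cardiomyocyte peptides, were near the detection limit in endothelial classes. Nppa had 11 UMIs in 9 cells, 84 in 21 cells, 45 in 29 cells and 47 in 35 cells in stage order. Endocardial cells held 4.44 CPM at E12 (2.13 to 8.17, 10 UMIs), 3.38 at E15 (1.55 to 6.42, 9 UMIs), 3.36 at P2 (1.99 to 5.31, 18 UMIs) and 3.19 at the adult stage (1 UMI). Coronary cells held 0 UMIs at E12 and E15, 1.18 CPM at P2 (0.746 to 1.77) and 6.47 CPM in the adult (4.72 to 8.66). The adult endocardial value has an interval of 0.0807 to 17.8 CPM. The endocardial to coronary ratio was 2.85 at P2 (1.45 to 5.53) and 0.492 in the adult (0.0122 to 2.89, 1 endocardial UMI). Nppb had 7, 9, 4 and 2 UMIs per library.

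A few cells with cardiomyocyte transcripts held most of the E15 Nppa. One cell of the valve class had 39 Nppa UMIs among 693 UMIs, with 19 UMIs of 17 cardiomyocyte genes, and it is the whole E15 valve value of 130 CPM. An unclassed cell of 1189 UMIs had 25 Nppa UMIs and 78 cardiomyocyte UMIs. In all, 65 of the 84 UMIs lay in 3 cells with over 1% cardiomyocyte transcripts. The adult coronary level of 6.47 CPM was 5.04 CPM without its highest cell, which had 10 Nppa UMIs, 957 UMIs in all and 30 cardiomyocyte UMIs. Coronary Nppa was 5.50 times higher in the adult than at P2 (3.26 to 9.53). The P2 coronary level was 0.716 CPM without its highest cell, which had 9 of the 23 UMIs.

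**Figure D5:**
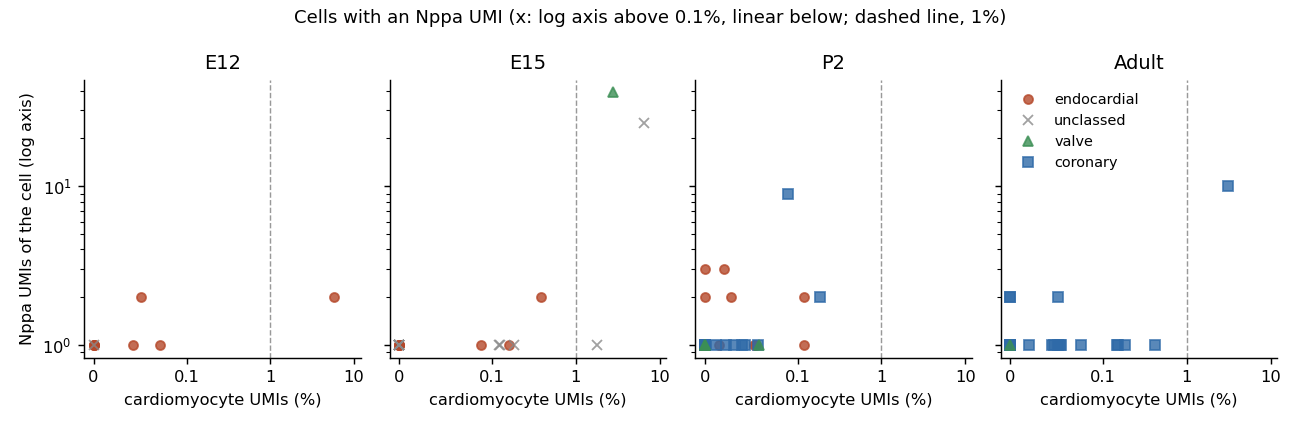
Cells with an Nppa UMI at the 4 stages, by the percent of their UMIs that come from 17 cardiomyocyte genes (x axis, log scale above 0.1%, linear below) and their Nppa UMIs (y axis, log scale), with symbols for the class and a dashed line at 1%. The cells with 39 and 25 Nppa UMIs at E15 and 10 in the adult lie to the right of the line, and the other cells with most Nppa hold at most 9 UMIs.

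Cardiomyocyte transcripts were present in all classes, since the cardiomyocyte list summed to 474, 370, 155 and 28.7 CPM in endocardial, 93.0, 114, 170 and 196 CPM in coronary and 422, 318, 138 and 92.2 CPM in valve cells. Per 100 cardiomyocyte UMIs there were 0.938 (0.449 to 1.73), 0.913 (0.416 to 1.74) and 2.16 (1.28 to 3.44) Nppa UMIs in endocardial cells up to P2, and 11.1 (0.253 to 80.2) in the adult, from 1 Nppa and 9 cardiomyocyte UMIs. In coronary cells there were 0 at both embryonic stages, then 0.693 (0.439 to 1.04) and, in adult cells, 3.31 (2.40 to 4.45). At E12, where empty droplets were kept in the data, barcodes with at most 100 UMIs gave 2.73 Nppa UMIs per 100 (1.48 to 4.62), against 0.342 (0.171 to 0.613) over all cells. Of 41 erythroid-like cells at E12, none held Nppa or Nppb. The part of free cardiomyocyte RNA in the endothelial Nppa values was not tested beyond these proportions.

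The members were then read against all genes. At least 20 UMIs over both sides were needed, and a gene was counted when it was at least 2-fold apart either way. Between endocardial and coronary cells this held for 27.4% of 8590 genes at E12, 18.8% of 9776 at E15, 24.1% of 12304 at P2 and 33.7% of 10668 at the adult stage. Of the members, 2 of 2 were counted at E12 (Npr3 higher, Npr1 lower), 1 of 3 at E15 (Npr3 higher), 2 of 5 at P2 (Npr3 and Nppa higher) and 2 of 4 at the adult stage (Npr3 higher, Nppa lower). Npr3 was the member that was counted at all 4 stages, and with 2 to 5 members tested the other counts are too small to set apart from the background.

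Between stages, in endocardial cells 9.44% of all genes did so from E12 to E15, 18.2% from E15 to P2 and 27.5% from P2 to the adult, and of the members 0 of 3, 1 of 4 and 1 of 3, Npr2 being the member that passed 2-fold upward in both later steps. Its ratios were 2.25 (1.27 to 4.24) and 2.01 (0.834 to 4.19). The second rests on 8 adult UMIs and its interval includes 1. In coronary cells the background was 18.5%, 24.3% and 24.2%. None of 2 members passed in the first step. In the second Npr1 and Npr2 passed upward. Nppa and Nppc are counted with them, 4 of 5 in all, because genes at 0 UMIs on one side count as past 2-fold for members and background alike, but against 3 UMIs at E15 their ratios were 0.633 and 0.964, so they are not shown to be higher. In the last step Nppa and Npr2 were higher and Nppc lower, 3 of 5.

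The enzymes around the pathway were described in the same way. Of 28 genes in 5 lists, for peptide processing, soluble guanylyl cyclase, cGMP effectors, phosphodiesterases and inhibitory G proteins, 15, 16, 22 and 17 had enough UMIs in stage order. In endocardial against coronary cells 8, 6, 9 and 6 of them were at least 2-fold higher and 1, 2, 3 and 3 at least 2-fold lower, beside 27.4%, 18.8%, 24.1% and 33.7% of all genes past 2-fold either way. Between stages within a class, 1 to 5 genes passed 2-fold upward and 1 to 5 downward among the 9 to 22 tested in each step, beside 9.44% to 27.5% of all genes.

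Corin, the protease that activates the atrial peptide, was 14.3 CPM in endocardial and 3.10 CPM in coronary cells at E15 (4.61 times, 1.81 to 15), and 15.9 against 0.972 CPM at P2 (16.3 times, 9.84 to 28.4). Ece1, an endothelial peptidase, was higher in the endocardium at all stages, at 3.64, 3.78, 3.25 and 2.33 times. The subunits of soluble guanylyl cyclase, which makes cGMP in response to nitric oxide, followed the same direction. Gucy1b3 was 7.36 (1.28 to 295, 1 coronary UMI), 4.48, 3.54 and 4.21 times higher, and Gucy1a3, with 69 endocardial and 0 coronary UMIs at E12, was 12, 3.31 and 4.10 times higher from E15 on. Nos3, which supplies the nitric oxide, was within 1.5 times between the classes at all stages. Furin, a convertase that cleaves the C-type precursor, was 6.26 times higher at E12 (1.69 to 52.3, 2 coronary UMIs) and between 0.860 and 1.19 times later.

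Among the phosphodiesterases, which break down cyclic nucleotides, Pde3a and Pde2a lay on opposite sides. Pde3a, an enzyme inhibited by cGMP, was 2.87 (0.949 to 14.2), 4.44 (2.74 to 7.59), 12.5 (10.3 to 15.2) and 15.7 times (10.7 to 22.8) higher in endocardial cells. Pde2a, an enzyme stimulated by cGMP, was 0.218 (0.141 to 0.330), 0.295 (0.254 to 0.341) and 0.0665 (0.0137 to 0.195) times as high from E15 on, and stood at 3 UMIs in adult endocardial cells. Pde1a was 5.93 times higher at P2 and 14.8 times in the adult, and Prkg1, the cGMP-dependent kinase, was 7.29 times higher at P2 (4.28 to 12.8). Abcc4, a transporter that exports cyclic nucleotides, was 0.167 times as high at P2 and 0.0724 times in the adult, where endocardial cells held 1 UMI. Of the inhibitory G proteins, Gnai2 was lower in endocardial cells at all stages, at 0.623, 0.461, 0.537 and 0.644 times. Ece1, Nos3 and the genes lower in endocardial cells were named after their values were seen. The 12 mesenchymal and mural markers summed to 1531.5 CPM in endocardial and 181 CPM in coronary cells at P2. In the adult they summed to 9414 and 915 CPM. The part of mesenchymal and mural cells in the ratios of these pathway genes was not tested.

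Over the 12 sums of class and stage, the genes whose pattern was most like that of a member were taken by Pearson's r of log2(CPM + 10) among 7765 genes with at least 500 UMIs. For Npr3 they were Foxc1 (0.987), Klhl13 (0.976) and Id2 (0.974). For Npr1 they were Naa20 (0.942), Cyc1 (0.913) and Dbnl (0.908), for Npr2 Smpdl3a (0.976), Nod1 (0.974) and Erap1 (0.969), and for Nppc Plcd1 (0.883), Adamts8 (0.872) and Inhba (0.870). The 12 sums come from 4 libraries and share their depth and class rule, and the values are a description. Nppa and Nppb had under 200 UMIs in the sums and were not matched.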

How the data were processed

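Libraries (10x Genomics 3′, version 2) were mapped by the authors to mm10 with Cell Ranger 2.2. The deposited values are raw UMI counts per gene and barcode. The E12 file holds 737280 barcodes, and those with at least 452 UMIs were taken as cells (88.7% of its UMIs). The other files hold called cells. Counts were summed per class and stage as CPM with exact Poisson intervals, ratios with exact conditional binomial intervals, and shares with exact binomial intervals, all at 95%. With 1 library per stage no p-value was computed between stages, and classes were compared over the 4 libraries by exact permutation, a test added after seeing the data. A count of 0 was bounded by 3 counts. Named genes were the 6 members, the pathway genes with the highest ratios (up to 4 per comparison) and the 3 most alike genes. The members and lists were chosen with earlier results of these data known. Alternatives were the study's limits, doublets (Scrublet in scanpy 1.11.5), class rules, thinning and cell weights. The ratio code was tested on simulated data. Python 3.11.15, numpy 2.4.6, scipy 1.17.1 and matplotlib 3.10.9 were used.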

Additional observations from a re-analysis of the deposited data

Results flagged for a closer look

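From P2 to the adult, Npr3 went up in endocardial cells (1.44 times) and down in coronary (0.687 times) and valve cells (0.515 times). The difference between these changes was not tested, because each stage had 1 library, and the endocardial step was 0.957 with the cleanly separated classes.

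E12 barcodes with at most 100 UMIs, which no comparison between classes used, held transcripts of 5 of the 6 genes. They held 218 CPM of Npr3 (185 to 254, 159 UMIs), 1.21 times the level over all E12 cells (1.02 to 1.43), 0.767 times that of endocardial cells (0.641 to 0.914) and 8.59 times that of coronary cells (3.86 to 23.8). Nppa was 19.2 CPM (10.5 to 32.2, 14 UMIs), 14.2 times the level over all cells (5.97 to 34.5). Npr2 was 16.4 CPM (8.49 to 28.7), 2.62 times the cell level (1.27 to 4.98). Npr1 was 27.4 CPM (16.7 to 42.3), 1.23 times the cell level (0.733 to 1.96), and Nppc was 5.48 CPM from 4 UMIs. Nppb had 0 UMIs. For comparison, the coronary gene Fabp4 was 586 CPM in these barcodes, 19.2 times its level over all cells (16.4 to 22.5). Fabp4 is part of the class rule. It was 702 CPM in the E12 coronary cells that it helps define, and 0.889 CPM in endocardial cells. The barcodes held 0.836 times the coronary level of Fabp4 (0.697 to 1.01). How far such RNA reached the cells was not tested. The E12 coronary cells held 25.4 CPM of Npr3, below these barcodes.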

How the results depend on the processing

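Intervals cover counting error in 1 library per stage and take each UMI as independent, not each cell. Adult endocardial (108) and valve cells (72) and E12 coronary cells (111) were few. No paired analysis of stages was possible because each stage had 1 sample. Classes were paired within the 4 libraries, in a test added after seeing the data. The cleanly separated classes (no UMI of the other class's markers) were chosen after seeing the data. The ratios of Npr3, Npr1, Npr2 and Nppc on which the comparisons rest moved past their counting interval as follows, and the cause was not tested.

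For Npr3 in endocardial over coronary cells, thinning each cell to 500 UMIs before the class rule gave 2.65 at E12, 16.3 at E15 and 68.6 in the adult. Clean classes gave 14.8, 70.2 and 172 from E15 on, and leaving out cells with a doublet score over 0.15 gave 17.5 at E15 and 19.3 at P2. At P2 the ratio was 16.8 with class sums at least 2 UMIs apart and 12.7 with valve cells left in the other classes. In the adult it was 48.0 within the study's limits and 56.9 as a mean over cells. For Npr3 in valve over endocardial cells, thinning gave 0.387 at E12, 0.227 at P2 and 0.0862 in the adult, overlapping classes 0.411 at P2 and clean classes 0.342 at P2. For Nppc the valve to endocardial ratio at P2 was 1.79 with overlapping classes, where valve cells count on both sides. It was 140 with thinned cells and 69.6 with clean classes, the latter from 1 endocardial UMI. With classes set at full depth, 1 endocardial P2 cell still held Nppc after thinning. The Npr1 ratio was 0.609 at E12 with thinned cells and 0.810 at P2 with clean classes.

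Between stages, endocardial Npr3 from E12 to E15 was 1.27 with at least 2 pan-endothelial UMIs, 1.30 with sums 2 UMIs apart and 1.33 thinned. From E15 to P2 it was 1.21 with pan-endothelial UMIs, 1.21 with overlapping classes, 1.13 thinned and 1.43 with clean classes. From P2 to the adult it was 1.65 within the study's limits, 1.92 thinned and 1.65 as a mean over cells, and reversed to 0.957 with clean classes. Coronary Npr3 was 0.216 from E12 to E15 thinned and 0.301 from E15 to P2 with clean classes. From P2 to the adult it was 0.515 within the study's limits, 0.857 without likely doublets, 0.452 thinned, 0.392 with clean classes and 0.423 as a mean over cells. Coronary Npr2 from P2 to the adult was 3.12 thinned. Endocardial Npr1 from E12 to E15 reversed to 0.925 thinned. Valve Nppc was 15.6 from E15 to P2 thinned and 0.134 from P2 to the adult within the study's limits. Endocardial Npr2 was 10.7 from E15 to P2 thinned, 4.46 from P2 to the adult thinned and 4.39 with clean classes. Its ratio to coronary cells was 0.303 at E15 thinned and 2.69 (0.971 to 5.99) in the adult with clean classes. The clean adult values rest on 6 endocardial UMIs, and the thinned E15 endocardial level was 1.39 CPM. The thinned ratios of Nppc and of endocardial Npr2 rest on few UMIs, and their size is not settled. The valve to endocardial ratio of Npr1 at P2 was 0.399 thinned.

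Thinning left 24 of 48 ratios within their interval and clean classes 50 of 66, while the other alternatives moved at most 5 ratios each and reversed none. Alternatives that left a side at 0 UMIs gave no ratio.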
